A study of Caenorhabditis elegans with 2 samples.

Results

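The protein-coding genes described here are the mRNA splicing factor genes of Caenorhabditis elegans whose symbol in the WBcel235 annotation starts with rsp-, rsr-, snr-, prp-, lsm-, uaf-, sftb- or rnp- followed by a digit. The rule found 51 of 19973 protein-coding genes. It reads symbols only, so a role in splicing was not checked for each gene, and splicing factor genes below means genes that match the rule. Chromatin immunoprecipitation and sequencing (ChIP-seq) of NHR-11, which belongs to the nuclear hormone receptors, was done in whole L3 larvae of the strain OP305, males and females together. OP305 is unc-119(ed3) III and carries the insertion wgIs305, which targets nhr-11 and gives a receptor tagged with eGFP. The labels do not name the promoter that drives it. The antibody label names nhr-11, so whether the tag or the receptor was pulled down is not given. The study has 2 biological replicates of this 1 group and no second condition. Whole animals were used, so a region can come from any cell type. A control alignment entered the authors' peak calls, but the control library was not analysed here, and no comparison with untagged worms was possible.

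Splicing removes introns from pre-mRNA in the spliceosome, which is assembled from small nuclear ribonucleoproteins (snRNPs) and many further proteins. Each of the U1, U2, U4 and U5 snRNPs is built on a ring of Sm proteins, while U6 carries a ring of LSm proteins. SR proteins bind exons and help recruit the machinery to splice sites, U2AF and SF3B recognise the 3′ splice site and the branch point, and PRP proteins act at many steps of assembly and catalysis. In C. elegans many pre-mRNAs are also trans-spliced to a short leader, which uses much of the same machinery.

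For each gene the strongest region of each list was taken with a summit no more than 1000 bases upstream or 500 bases downstream of the annotated 5′ end. The lists were 1030 reproducible regions and 30000 candidate regions each for pooled reads, replicate 1 and replicate 2. Strength is the authors' peak signal value, whose scale is not stated, so values were compared only within a list. In the pooled list it ran from 19.4 to 899 with a median of 24.8, and the reproducible list is the 1030 strongest of those regions, down to 54.9. Read depth is unknown because the lists hold no counts, and a gene without a region had no candidate among the 30000 strongest, which is not the same as no binding.

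A reproducible region lay at 8 of the 51 splicing factor genes (15.7%, 95% Wilson interval 8.17 to 28.0), against 3.30% of all protein-coding genes (659 of 19973). The 8 genes were rsp-1, rsp-2, rsp-6, rsr-1, snr-4, lsm-5, prp-19 and prp-40, and they shared 7 regions, since rsp-1 and rsp-2 have the same one. The interval covers counting error only, and genes that share a region are not independent. Among the 1030 strongest regions of each replicate alone, 9 splicing factor genes had a region in replicate 1 (17.6%) and 7 in replicate 2 (13.7%), against 3.07% and 3.11% of all genes. The background genes were not matched for expression or for the arrangement of their neighbours.

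Most of these regions were in the stronger part of the reproducible list, with the strongest at rank 257 (rsr-1) and rank 264 (prp-19). None of the 51 genes had one of the 250 strongest pooled regions, where 0.876% of all genes had one. With the 500 strongest the count was 6 of 51 (11.8%), against 1.75% of all genes. Further down the pooled list the count grew little, to 9 of 51 with the 2000 strongest regions (17.6%, against 5.20% of all genes) and to 12 of 51 with the 5000 strongest (23.5%, against 10.5%). With all 30000 candidates, 27 of 51 splicing factor genes had a region (52.9%, interval 39.5 to 65.9), against 43.2% of all genes, and this interval holds the background share.

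**Figure D1:**
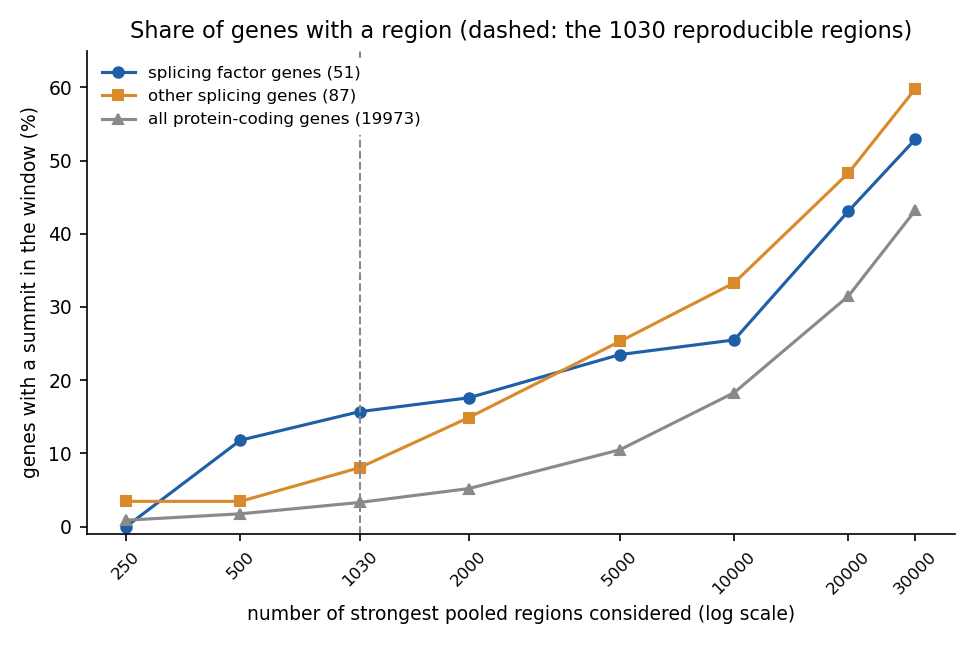
Share of genes (%) with a summit in the window against the number of strongest pooled regions considered (log scale), for 51 splicing factor genes, 87 other splicing genes and 19973 protein-coding genes. At the dashed line the shares are 15.7%, 8.05% and 3.30%, and at 30000 regions they are 52.9%, 59.8% and 43.2%.

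The sequences around the summits are shown so that the short words counted in the regions can be seen in place. Each runs 5′ to 3′ on the strand of the named gene on ce11, from the RefSeq copy of WBcel235, over 100 bases to each side of the summit and without annotated UTR bases. Capitals mark ACGCAG and GCGCGC on either strand. The windows are at II:11453098-11453298 (plus strand, for rsp-1 and its divergent neighbour rsp-2), IV:7791331-7791531 (minus strand), V:11979953-11980153 (minus strand), III:5172575-5172719 (minus strand) and III:9521829-9522029 (plus strand). The windows at rsr-1 and lsm-5 are not printed here, and all counts of words below include them.
rsp-1: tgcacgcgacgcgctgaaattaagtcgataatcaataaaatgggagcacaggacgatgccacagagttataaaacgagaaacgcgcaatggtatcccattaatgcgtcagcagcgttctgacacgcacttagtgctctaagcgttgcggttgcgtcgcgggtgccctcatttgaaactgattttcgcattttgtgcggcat
rsp-6: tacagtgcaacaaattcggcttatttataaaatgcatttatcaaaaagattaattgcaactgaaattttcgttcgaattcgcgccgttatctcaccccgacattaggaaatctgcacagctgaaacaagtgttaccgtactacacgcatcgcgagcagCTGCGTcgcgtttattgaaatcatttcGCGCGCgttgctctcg
snr-4: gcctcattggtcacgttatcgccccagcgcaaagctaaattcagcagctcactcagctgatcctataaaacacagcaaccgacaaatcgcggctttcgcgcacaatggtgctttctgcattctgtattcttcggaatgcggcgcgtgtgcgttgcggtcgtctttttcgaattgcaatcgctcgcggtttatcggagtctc
prp-19: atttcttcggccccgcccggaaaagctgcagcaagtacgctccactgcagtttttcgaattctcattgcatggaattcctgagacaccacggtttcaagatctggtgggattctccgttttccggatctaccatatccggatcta
prp-40: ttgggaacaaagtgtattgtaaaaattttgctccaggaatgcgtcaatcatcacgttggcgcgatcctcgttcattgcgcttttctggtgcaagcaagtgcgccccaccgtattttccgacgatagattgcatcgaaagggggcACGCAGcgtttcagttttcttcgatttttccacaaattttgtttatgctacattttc

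The 6 words searched on both strands were GAGAGA along with AGACGC and then ACGCAG followed by GCGCGC with the E-box CACGTG and the longer word GAGACGCAG, which contains AGACGC and also ACGCAG. Within 50 bases of a summit only ACGCAG was found, at rsr-1 and prp-40. At least 1 of the 6 words was thus at 2 of the 7 regions (28.6%, interval 8.22 to 64.1), against 48.4% of all 1030 reproducible regions and 51.7% of the 511 at protein-coding gene starts, both of which lie inside that interval. GAGAGA was within 50 bases of the summit in none of the 7 regions (Wilson interval up to 35.4%), against 28.6% of all reproducible regions. Anywhere in the region it was present in 1 of 7, at 99 bases from the summit for snr-4 (14.3%, against 54.3%). ACGCAG was the word most shared by the splicing factor regions. Within 50 bases of the summit it was in 2 of 7 (28.6%, interval 8.22 to 64.1). The share was 16.7% in all reproducible regions and 19.2% in the 511 at gene starts, both inside that interval. Anywhere in the region ACGCAG was present in 4 of 7 (57.1%), against 30.6% of all reproducible regions, and no interval was computed there. It lay 38 bases from the summit for rsr-1, 47 for prp-40, 60 for rsp-6 and 151 for rsp-1 and rsp-2. With 7 regions these shares are coarse, and a word is a description of the letters and not a binding site. The 101 bases centred on the summit had a median of 51.5% G and C in the 7 regions. The median was 47.5% in the 511 reproducible regions at protein-coding gene starts and 45.5% in all reproducible regions. The 7 regions ranged from 32.7% at lsm-5 to 56.4% at prp-40.

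The SR proteins bind exonic enhancers and act in both constitutive and alternative splicing. Of 8 rsp- genes, 3 had a reproducible region. The genes rsp-1 (WBGene00004698, II:11453362-11455864, plus strand) and rsp-2 (WBGene00004699, II:11451441-11452955, minus strand) stand head to head with 406 bases between them. A region at II:11453020-11453375 lay in this gap, with an intergenic summit 164 bases upstream of rsp-1 and 243 bases upstream of rsp-2. Its signal was 92.8 in the pooled list, where it ranked 303. In the replicate lists it had 45.7 and rank 333 in replicate 1, and 48.5 and rank 306 in replicate 2. The summits of both replicates were 5 bases apart. One region therefore accounts for both genes, and the lists cannot assign it to either of them.

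The gene rsp-6 (WBGene00004703, IV:7789847-7791229, minus strand), which encodes a further SR protein, had a region at IV:7791253-7791608 with an intergenic summit 202 bases upstream. No other protein-coding gene shared it. Its signal was 63.9 with rank 734 in the pooled list, 32.3 with rank 784 in replicate 1, and 29.8 with rank 921 in replicate 2. The replicate summits were 80 bases apart, the widest gap among the 7 regions, whose median was 9 bases against 21 bases for all 1027 reproducible regions listed in both replicates. The SR gene rsp-3, orthologue of human SRSF1, had only weak candidates, with a pooled signal of 19.4 (rank 29904) and no region in replicate 1. The gene rsp-7 had a pooled signal of 42.1 (rank 2065) that ranked 1951 in replicate 1 but 24472 in replicate 2, and rsp-8 had 37.8 (rank 3044). The remaining rsp- genes were rsp-5, which had a candidate in replicate 2 alone, and rsp-4, which had none in any list. The rsp-5 candidate of replicate 2, at rank 22963, lay between rsp-5 and the Sm gene snr-3, another head-to-head pair with 403 bases between them.

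The SR-related proteins rsr-1 and rsr-2 correspond to the splicing coactivators SRRM1 and SRRM2 of human cells. At rsr-1 (WBGene00004706, I:11177848-11182063, minus strand) a region at I:11182366-11182721 had its intergenic summit 481 bases upstream. It was the strongest region at any splicing factor gene, with a pooled signal of 100.1 and rank 257, a signal of 60.4 and rank 174 in replicate 1, and 41.8 and rank 429 in replicate 2. The same region lay 251 bases upstream of the chemoreceptor gene sri-5 on the other strand, whose start is nearer to the summit. The gene rsr-2 had a pooled candidate of 22.7 (rank 19948) and none in replicate 2.

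**Figure D2:**
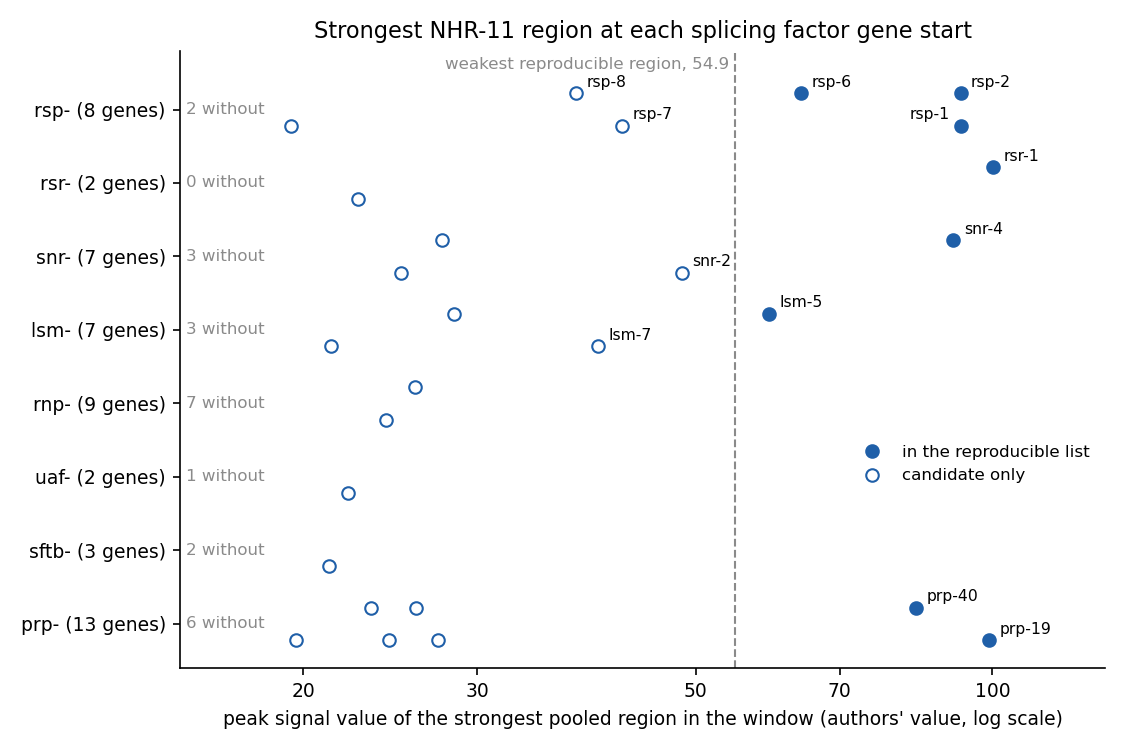
Authors' peak signal value (log scale) of the strongest pooled region in each gene's window, by symbol family, with filled points for the 8 genes in the reproducible list and open points for candidates. The filled points run from 59.3 at lsm-5 to 100.1 at rsr-1. All rnp-, uaf- and sftb- genes lie left of the dashed line or have no pooled region.

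The Sm ring is assembled from 7 proteins, all of which are among the genes here. Only snr-4, which encodes SmD2, had a reproducible region. It lay at V:11979875-11980230, with the summit 330 bases upstream of snr-4 (WBGene00004917, V:11978508-11979723, minus strand). The signal was 91.3 with rank 311 in the pooled list, 45.8 with rank 329 in replicate 1 and 41.0 with rank 450 in replicate 2. The summit was in the exon of a noncoding RNA gene, C52E4.14, and 65 bases from the small nuclear RNA gene WBGene00014291. Of the 31-base words of this region 73.3% occur once in the genome, the lowest share among the 7 regions. Whether reads from other copies contribute was not tested. It was the only one of the 7 regions with a noncoding gene within 250 bases of the summit.

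The SmB gene snr-2 came closest among the genes without a reproducible region. Its strongest pooled region had a signal of 48.4 and ranked 1357, below the weakest reproducible signal of 54.9. In replicate 1 it ranked 856, which would place it among the 1030 strongest, but in replicate 2 it ranked 6317. The summit was 396 bases upstream of snr-2 and 70 bases upstream of W08E3.4, the divergent neighbour. The SmF gene snr-5 and the SmE gene snr-6 had pooled signals of 27.7 and 25.1 and no region in replicate 2, and snr-3 (SmD1) had a candidate in replicate 2 alone. The genes snr-1 (SmD3) and snr-7 (SmG) had no candidate in any list.

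The LSm proteins form the ring on U6 and, with LSm1 in place of LSm8, a ring of mRNA decay. Of the 7 lsm- genes, lsm-5 (WBGene00003079, V:15570380-15570655, plus strand) had a reproducible region, at V:15569625-15569980 with the summit 577 bases upstream. This was the weakest of the 7 regions, with a signal of 59.3 and rank 866 in the pooled list, 32.2 and rank 791 in replicate 1, and 24.1 and rank 1599 in replicate 2. It is the only one that was not among the 1030 strongest of both replicates. Its summit lay in the 3′ UTR of acs-2, which encodes an acyl-CoA synthetase and ends 482 bases before lsm-5 on the same strand. With a window of 500 bases to each side the strongest region at lsm-5 had a pooled signal of 33.97. The gene lsm-7 had a pooled signal of 39.8 (rank 2527) with its summit 478 bases downstream of the start, lsm-6 had 28.4 and lsm-8 had 21.3. Candidates at lsm-1 and lsm-3 were in replicate 1 alone, and lsm-4 had none.

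The prp- genes encode proteins named after yeast pre-mRNA processing mutants. Of 13, prp-19 and prp-40 had reproducible regions. PRP-19 is a ubiquitin ligase and scaffold of the complex that joins the spliceosome before catalysis. The region at III:5172497-5172852 had a signal of 99.3 and rank 264 in the pooled list, 43.4 and rank 363 in replicate 1, and 56.8 and rank 204 in replicate 2. Its intergenic summit was 630 bases upstream of prp-19 (WBGene00020423, III:5169933-5172045, minus strand), the greatest distance among the 8 genes, but 45 bases upstream of K10D2.5 and 764 bases upstream of emb-1, a subunit gene of the anaphase-promoting complex, both on the other strand. In this region 83.4% of the 31-base words occur once in the genome.

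PRP-40 is known from yeast as a U1 snRNP protein that bridges the ends of the intron. At prp-40 (WBGene00014218, III:9522075-9525454, plus strand) the region at III:9521751-9522106 had its intergenic summit 146 bases upstream, the shortest distance among the 8 genes. The signal was 83.7 with rank 376 in the pooled list, 40.9 with rank 419 in replicate 1 and 43.6 with rank 394 in replicate 2. The region also lay 469 bases upstream of the divergent gene clu-1, whose homologues act in the distribution of mitochondria. The replicate summits were 66 bases apart.

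The other 11 prp- genes included the orthologues of the U4/U6 and U5 proteins of yeast. Of these, prp-8, the core protein of U5, had a pooled signal of 24.4 and ranked 4552 in replicate 1 but 22208 in replicate 2. The U4/U6 genes prp-31 and prp-4 had pooled signals of 26.0 and 23.4 and no region in replicate 1, and prp-3 had no candidate. The SF3A gene prp-9 had 27.4, while prp-21 of the same complex had a candidate in replicate 1 alone. The gene prp-18, which acts in the second step of splicing in yeast, had 19.6. Candidates of prp-6 and prp-38 were in 1 replicate each, and prp-17 and prp-39 had none.

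No reproducible region lay at the 9 rnp-, 2 uaf- and 3 sftb- genes. Because only 3.30% of all protein-coding genes had one, none in groups this small says little about these families. The rnp- group holds the U1 protein gene rnp-7, orthologue of U1-70K, the related genes rnp-2 and rnp-3, whose annotated bodies are 72 bases apart on the same strand, the exon junction genes rnp-4 and rnp-5 and the PUF60 orthologue rnp-6. Of its 9 genes, 7 had no candidate in any list (rnp-2, rnp-4, rnp-5, rnp-6, rnp-7, rnp-8 and rnp-9). Most protein-coding genes also lacked a pooled candidate, since 43.2% had one. The pooled signals of rnp-1 and rnp-3 were 26.0 and 24.2. Of the U2AF genes, uaf-1 had a candidate in replicate 2 alone and uaf-2 had a pooled signal of 22.2. The SF3B gene sftb-1 had 21.2, sftb-6 had a candidate in replicate 2 alone and sftb-2 had none.

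In all, 19 genes had a pooled candidate below the reproducible list, with signals from 19.4 to 48.4 and a median of 25.1, close to the median of the whole pooled list. Of these, 8 had a candidate in both replicates, 4 in replicate 1 but not replicate 2, and 7 in replicate 2 but not replicate 1. A candidate in both was not always the same region. The strongest summits in replicates 1 and 2 were at -760 and -39 bases from the start of rnp-1 (negative is upstream). For prp-9 they were at -169 and 296 bases. A further 9 genes had a candidate in a replicate list only, 4 in replicate 1 and 5 in replicate 2, and 15 had none. A pooled candidate of any strength was at 52.9% of the 51 genes, against 43.2% of all genes. The share of all genes in no list is not given here. All 7 reproducible regions ranked at 1599 or better in both replicates.

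**Figure D3:**
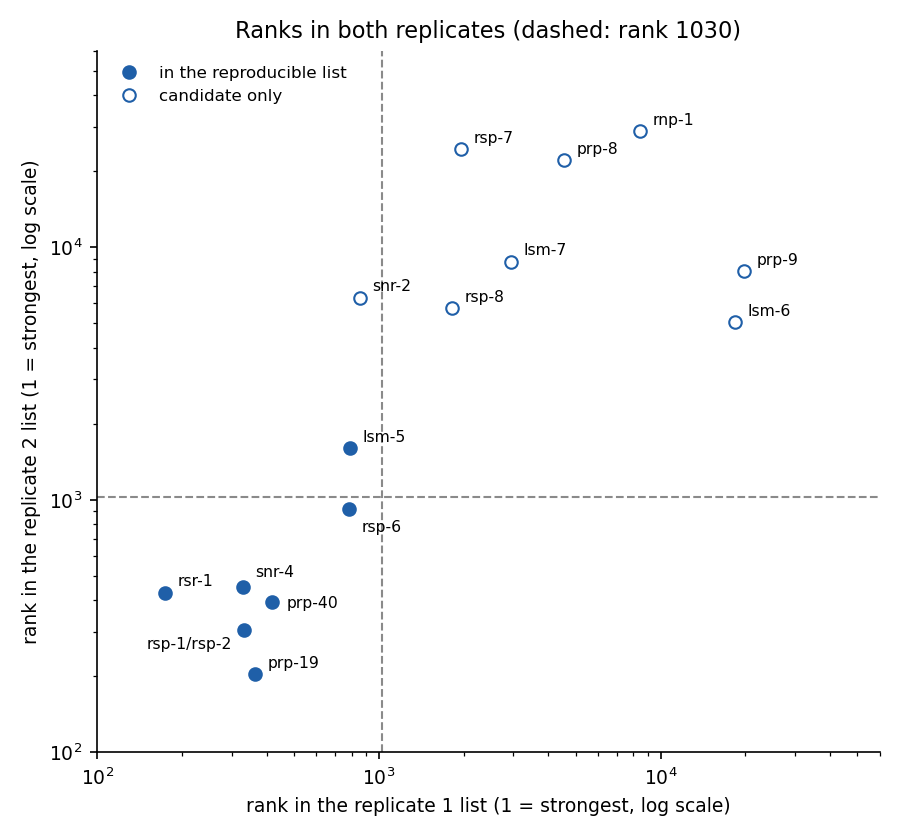
Rank of the strongest region in the window in replicate 2 against replicate 1 (log scales, 1 is the strongest) for genes with a region in both lists, with dashed lines at rank 1030. The ranks of a gene may come from different sites in its window. Of the reproducible regions (filled), lsm-5 alone lies above the horizontal line, at rank 1599 in replicate 2, and snr-2 (open) ranks 856 in replicate 1 and 6317 in replicate 2.

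All 8 summits lay upstream of the gene start, from 146 to 630 bases away. The median position was 286.5 bases upstream, against 262 bases upstream for all 659 genes with a reproducible region, of which 608 had it upstream. The pooled signal of the 8 genes had a median of 92.1, against 76.5 for all 659 genes, whose maximum was 899. The start nearest to the summit belonged to the splicing factor gene itself for 5 of the 8 (rsp-1, rsp-6, snr-4, lsm-5 and prp-40), and to another gene for rsp-2, rsr-1 and prp-19.

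**Figure D4:**
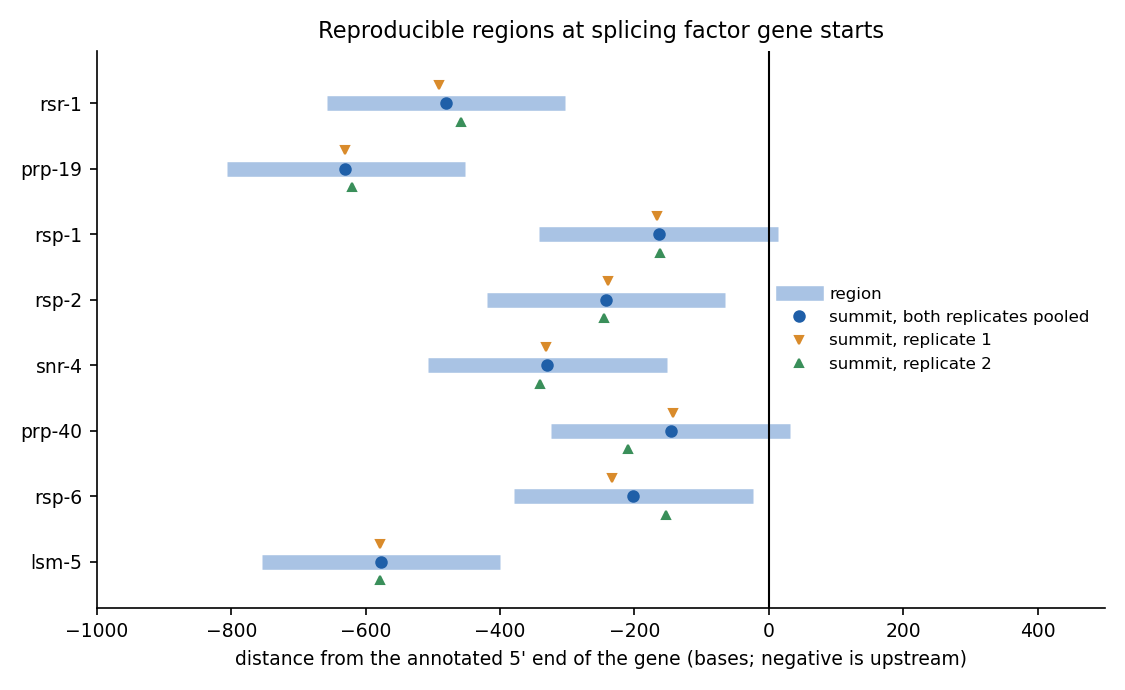
Regions (bars) and summits of the pooled list and of both replicates at the 8 genes with a reproducible region, by distance in bases from the annotated 5′ end, strongest at the top. Pooled summits lie between 630 bases upstream (prp-19) and 146 bases upstream (prp-40).

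Splicing factor genes often stand head to head with a neighbour. Counting genes whose nearest upstream neighbour is divergent and starts within 1000 bases, this held for 30 of 51 (58.8%), against 17.2% of all protein-coding genes. It held for 5 of the 8 with a reproducible region (62.5%) and for 25 of the 43 without (58.1%), while among all 659 genes with a reproducible region the share was 35.1%. A same-strand gene ended within 500 bases upstream of the start, or overlapped the start, at 13 of 51 genes (25.5%, against 20.6% of all). The overlapping cases were rsp-4, lsm-3 and rnp-1. Such arrangements can occur in operons, and rsp-6 and lsm-5 were the 2 of the 13 with a reproducible region. How much of the share of splicing factor genes with a region comes from shared divergent promoters was not tested. With each region given to its nearest start alone, 5 of the 51 genes had one (9.80%), against 2.51% of all genes.

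Of 94 further symbols of splicing genes outside the symbol rule, chosen with earlier results of these data known, 87 matched a protein-coding gene. The interval below therefore only describes this list. A reproducible region lay at 7 of these 87 genes (8.05%, interval 3.95 to 15.7, against 3.30% of all genes). Among them were swp-1, a homologue of the fly splicing regulator suppressor of white apricot, with a pooled signal of 111.2, and mog-4, a DEAH-box helicase gene, with 108.9. Weaker regions were at smu-1 with 69.2, the SR protein kinase gene spk-1 with 59.7, the muscle splicing regulator sup-12 with 59.5 and the CELF family gene etr-1 with 55.4. The regions of swp-1 and spk-1 were nearer to the starts of rpl-23 and rheb-1. At etr-1 the summit was in the exon of a small nucleolar RNA gene, T25D3.8, and 746 bases upstream of etr-1. Of the 31-base words of the mog-4 region, 76.7% occur once in the genome. In replicate 1, 7 of the 87 genes had one of the 1030 strongest regions (8.05%, against 3.07% of all genes). In replicate 2, 3 of the 7, mog-4 and swp-1 included, ranked among the 1030 strongest (3.45% of 87 genes, near the 3.11% of all genes). There smu-1, spk-1, sup-12 and etr-1 ranked 1969, 1258, 1045 and 2637.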

How the data were processed

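Peak lists on the ce11 build were used, 1 for each of the 2 biological replicates, 1 for both pooled and 1 of reproducible regions kept after an irreproducible discovery rate (IDR) step, per the deposited descriptions. The libraries' fragment size range was 150 to 350 bases, per the labels. The peak signal value in the lists was made by the authors from the sample and control alignments, while the labels and descriptions name no scale, caller or aligner. The ce10 lists were not used. Fixed-width regions, 356 bases in most cases, say nothing on the extent of binding.

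Regions were ranked by signal and joined to the Ensembl release 115 annotation (WBcel235, the same build as ce11) in Python 3.11.15. All coordinates are 1-based. Assignment was tested on simulated regions. No enrichment or other test was run, and the intervals given with some shares are 95% Wilson intervals (scipy 1.17.1). Every splicing factor gene under the symbol rule with a reproducible region was named, with candidates down to rank 2000 of the pooled list, and the remaining genes were named after their values were seen, to account for each. Orthologues and roles are background knowledge. The genes, lists and words were chosen with earlier results of these data known. The values of 1 further splicing gene are not reported here.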

Additional observations from a re-analysis of the deposited data

How the results depend on the processing

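Splicing factor genes with a reproducible region numbered 5 of 51 with the nearest start only (9.80%, against 2.51% of all genes), 6 with windows of 500 bases to each side (11.8%, against 2.54%), 6 with the 515 strongest regions (11.8%, against 1.81%) and 7 among the strongest of both replicates (13.7%, against 2.14%). They numbered 8 with windows of 2000 bases, any transcript start or region overlap (15.7%, against 5.22%, 3.57% and 3.59%). Without possible downstream operon genes, 6 of the 38 left had one (15.8%, against 3.65% of 15867). Leaving out a replicate gave 7 to 9, with lsm-5 lost without replicate 1 and snr-2 gained without replicate 2. Other splicing genes numbered 4 with 500-base windows, 3 with the 515 strongest regions and among the strongest of both replicates, and 3 without replicate 1. All protein-coding genes numbered 1042 with 2000-base windows, 361 with the 515 strongest and 427 among the strongest of both. Depth is unknown. No paired analysis was possible because there is 1 group.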
